A study of Caenorhabditis elegans with 2 samples.

Results

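The genes described are 10 C. elegans genes known for the identity, signalling and neuropeptides of the BAG and URX sensory neurons, taken by name from 19973 protein-coding genes: the regulators ets-5, ahr-1 and aha-1, the channel subunits tax-2 and tax-4, the peptide genes flp-8, flp-10, flp-17 and flp-19, and the receptor gene npr-5. All 10 names matched the annotation. Binding of EGL-13, a SoxD-type HMG-box transcription factor, was measured by chromatin immunoprecipitation with an anti-GFP antibody and sequencing. The samples were 2 biological replicates, numbered 3 and 4, of whole hermaphrodite L1 larvae of strain GOU883, taken 6 h after synchronization, for which the labels give bleaching and then starvation. Both replicates carried EGL-13 with GFP and FLAG at its C terminus, described in the labels as an insertion aimed at egl-13 and as a stable transgenic line. There was 1 group and no untagged or mutant group is analysed here, so each result is a description of where regions lay and how well the replicates recovered them, with no test.

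BAG neurons sense carbon dioxide and falling oxygen, and URX neurons sense rising oxygen. In both, guanylate cyclases make cyclic GMP and the TAX-2/TAX-4 channel opens in response to it. The ETS-domain factor ETS-5 is known as a regulator of BAG identity and the aryl hydrocarbon receptor AHR-1, with its partner AHA-1, as a regulator of URX identity, and genetics has placed egl-13 in the specification of both neurons. The larvae were used whole, so a region recovered in these few neurons and one recovered in other cells cannot be told apart.

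Each gene was given a window from 2000 bp upstream of its 5′ end to its other end, and a region was counted where its summit fell in the window. The authors deposited an optimal list of 2294 regions and a list of 30000 regions called on both replicates pooled. They also deposited 1 list of 30000 regions for each replicate. The lists of 30000 include background. Regions were ranked within each list by the authors' signal value, with 1 as the strongest, and the optimal list held exactly the 2294 strongest pooled regions. The lowest signal value in it was 65.30 and the highest outside it was 65.29. A place in the optimal list thus followed pooled signal, and an optimal region need not rank alike in both replicates. Read depth is unknown from these lists. Regions were mostly of fixed width, with 84.3% of optimal regions 384 bp wide, and 85.4% of optimal summits lay at the centre of their region.

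Of the 10 genes, 4 had an optimal region in the window (ets-5, aha-1, flp-17 and flp-19), against 12.0% of all protein-coding genes. These were 5 regions, since ets-5 had a pair. Pooled regions numbered 39 and were found at each of the 10 genes, where 68.6% of all protein-coding genes had one. The pooled list includes background, so a place in it does not make a region significant. The deposited −log10 q value ran from 2.85 to 3.36 at the 5 optimal regions and from 0.23 to 2.59 at the others. It was 0.43 at the tax-2 region and 0.34 and 0.25 at those of flp-10. The windows of these genes held 86.0 optimal summits per Mb, against 26.7 per Mb over the windows of all protein-coding genes, and 671 pooled summits per Mb against 297. The median window was longer for the 10 genes (5708 bp) than for all genes (4027 bp). Only ets-5 had a region in the stronger 50% of the optimal list, where the share of all genes was 7.05%.

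**Figure D1:**
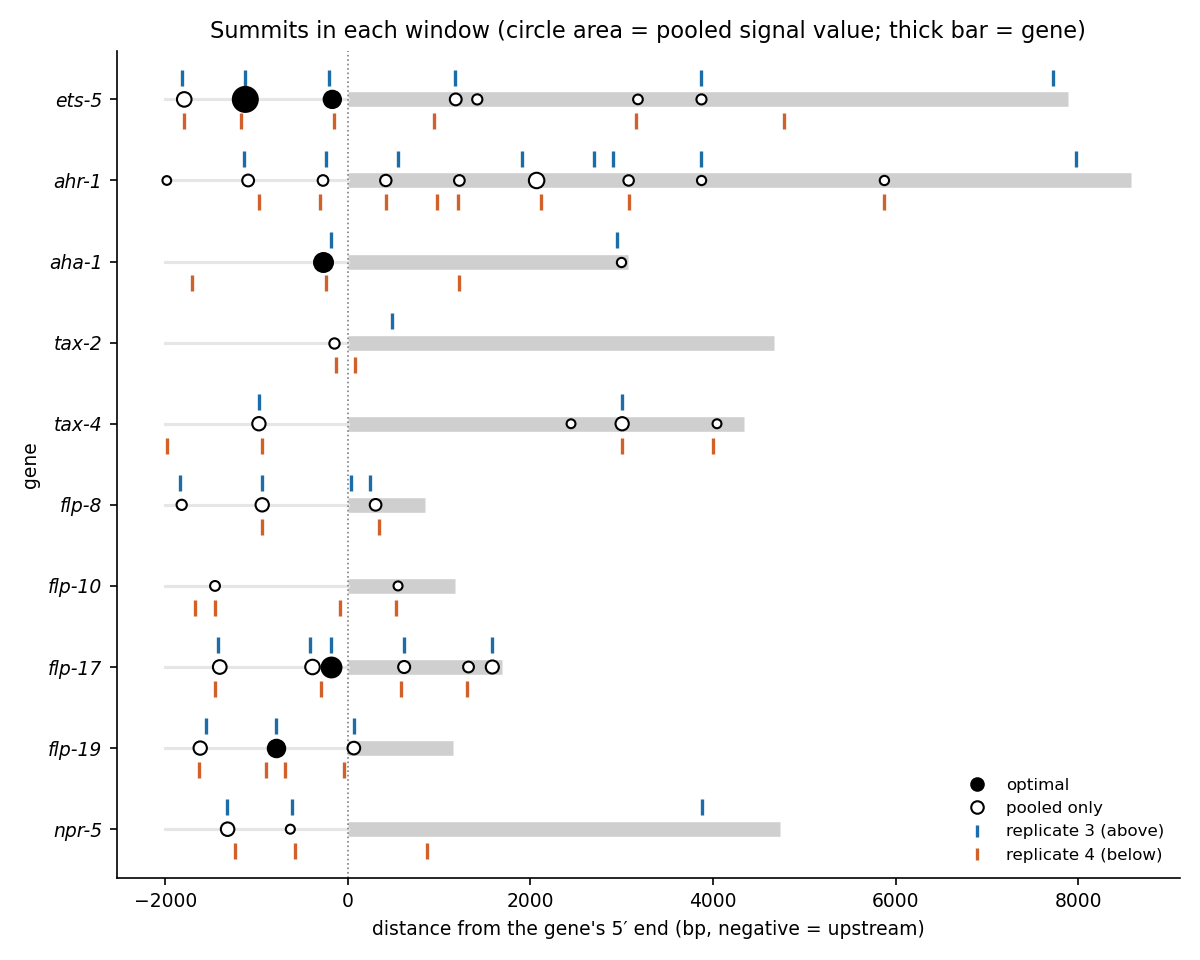
Summit positions at the 10 genes, as distance in bp from the 5′ end of the gene (negative is upstream). The thick bar is the gene, circles are pooled summits with area in proportion to the signal value and filled where optimal, and ticks are summits of replicate 3 (above) and replicate 4 (below). The 5 optimal summits all lie upstream of the gene, whereas 20 of the 39 pooled summits lie inside the gene whose window holds them.

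ets-5 (WBGene00016600, X:5076635-5084526, minus strand) carried the strongest region of the 10 genes and 7 of the 39 pooled regions. The optimal region at X:5085458-5085841 had its summit at X:5085650, 1124 bp upstream of the 5′ end, with a pooled signal value of 159 and rank 546. It ranked 601 in replicate 3, with a summit 3 bp away, and 580 in replicate 4, with a summit 50 bp away, so both replicates placed it in the strongest part of their lists. The summit fell inside a tRNA gene (WBGene00022958, X:5085622-5085695, minus strand) and inside C42D8.14, an ncRNA gene on the other strand. Of the 2294 optimal summits, 22 (0.959%) lay inside a tRNA gene and 88 (3.84%) within 200 bp of one, against 0.216% and 0.743% of 27332 weaker pooled regions that no optimal region overlaps. The part of the tRNA gene in the signal at ets-5 was not tested.

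The other optimal region of ets-5, at X:5084505-5084888, had its summit 171 bp upstream of the 5′ end, with signal 76.5 and rank 1805. Replicate 3 held it at rank 1594 with a summit 34 bp away. Replicate 4 held a summit 18 bp away on the other side, at rank 4356, outside its 2294 strongest. The ncRNA gene C42D8.10 (X:5084511-5084636, plus strand) lay within 200 bp of this summit. A further pooled region stood 1793 bp upstream, at rank 3029, and was among the strongest of replicate 4 (rank 1868, summit at the same base) but not of replicate 3 (rank 5364). Its nearest 5′ end was that of pnk-4, at 1522 bp, on the far side. The 4 remaining pooled regions lay inside ets-5, at 1181, 1417, 3177 and 3873 bp from the 5′ end, and ranked 6561, 13618, 17935 and 14442. The first was in a 5′ UTR, 86 bp from an internal 5′ end, and the second in a coding exon; the last pair lay in introns. None of these 4 had a summit within 100 bp in both replicates.

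Sequences of both optimal ets-5 regions are shown because one of them contains a tRNA gene and the other an ETS core at its pooled summit. Each is from the RefSeq genome of ce11 (WBcel235) and on the minus strand, as ets-5 is read, and runs from 50 bp before the first to 50 bp after the last of the pooled and replicate summits. In the upper one, X:5085600-5085750, the capitals mark the tRNA gene, and the summits of replicate 4 and replicate 3 are at bases 51 and 98, with the pooled summit 3 bases further on. In the lower one, X:5084629-5084781, the capitals mark CCGGAA, a core recognised by ETS-domain factors. It starts at base 84, so the pooled summit at base 85 lies within it. The summits of replicate 3 and replicate 4 are at bases 51 and 103, outside the core.
ets-5 distal: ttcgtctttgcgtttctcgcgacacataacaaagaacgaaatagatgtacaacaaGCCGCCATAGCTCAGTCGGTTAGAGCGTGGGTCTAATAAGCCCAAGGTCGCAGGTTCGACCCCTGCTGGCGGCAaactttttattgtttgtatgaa
ets-5 proximal: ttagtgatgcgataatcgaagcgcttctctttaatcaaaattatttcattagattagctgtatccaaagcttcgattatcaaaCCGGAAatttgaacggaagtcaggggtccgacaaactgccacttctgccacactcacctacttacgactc
The distal sequence also holds GCGTG, the core recognised by AHR-type dimers, at base 80, inside the tRNA gene, and AACAAT, the SOX core, as its reverse complement at base 138, outside it.

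aha-1 (WBGene00000095, I:10193925-10196997, minus strand), which encodes the bHLH-PAS partner of AHR-1, had an optimal region at I:10197078-10197461 with signal 91.4 and rank 1381. The summit lay 273 bp upstream of aha-1 and between genes. It lay closer, 51 bp, to the 5′ end of C25A1.15 (I:10197321-10197596), which is read in the opposite direction. The summit therefore lies between 2 divergent 5′ ends, the region itself runs past the start of C25A1.15, and position does not give it to aha-1. Replicate 3 ranked it 1309 and replicate 4 ranked it 1844, with summits 85 and 31 bp from the optimal summit. Both replicate summits were on the aha-1 side. The other pooled region of aha-1, in its 3′ UTR, ranked 21858 and had a replicate 3 summit (rank 15562) but no replicate 4 summit within 100 bp. Replicate 4 alone held weak regions 1216 bp inside the gene (rank 26910) and 1706 bp upstream (rank 15693).

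ahr-1 (WBGene00000096, I:9522550-9531132, plus strand), the aryl hydrocarbon receptor gene, had no optimal region but the most pooled regions of the 10 genes, at 9 over the longest window (10583 bp). The strongest, at I:9524425-9524808, had signal 61.2 and rank 2512 and thus fell just short of the optimal list. Its summit was in an intron, 2067 bp downstream of the outer 5′ end and 45 bp upstream of an internal one at I:9524662. In replicate 4 it ranked 1710, among the strongest, with the summit at that internal 5′ end. The replicate 3 summit was 163 bp from the pooled one, at rank 3149. The regions next in rank were one 1093 bp upstream (rank 6603; replicate 3 rank 4524, and a replicate 4 summit beyond 100 bp at rank 5347) and one 415 bp inside the gene (rank 7772). The 6 others ranked between 10697 and 28144; that at rank 28144, 1984 bp upstream, lay in a coding exon of set-32. Of the 9, 1 had a summit within 100 bp in both replicates, the region 273 bp upstream (rank 10984; 7167 in replicate 3 and 21974 in replicate 4). The nearest optimal summit was 70601 bp from the gene, at K07A1.20.

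The channel genes had no optimal region. tax-4 (WBGene00006526, III:9181546-9185888, plus strand), which encodes the alpha subunit of the cyclic nucleotide-gated channel, had 4 pooled regions. One lay 975 bp upstream, at III:9180379-9180762, with signal 45.5 and rank 4059; it ranked 4672 in replicate 3 and 7985 in replicate 4, with summits 4 and 36 bp away. Another lay in a coding exon at III:9184358-9184741, with signal 44.8 and rank 4157; it ranked 4674 in replicate 3 but 13506 in replicate 4, with summits 1 and 7 bp away. Both ranked lower in replicate 4. The others, at ranks 25899 and 26516, were close to the end of the list. The nearest optimal summit was 5349 bp beyond the gene, 128 bp upstream of cls-3.

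tax-2 (WBGene00006525, I:9020945-9025608, plus strand), which encodes the beta subunit, had the fewest pooled regions, with 1. It lay 154 bp upstream, at I:9020599-9020982, with signal 27.3 and rank 12800. Replicate 4 held it at rank 7488 with a summit 27 bp away. Replicate 3 had no summit within 100 bp of it, and its 1 region in the window, 488 bp inside the gene, ranked 25927. The nearest optimal summit was 50761 bp from the gene, at rsbp-1.

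Among the peptide genes, flp-17 and flp-19 had optimal regions and flp-8 and flp-10 did not. flp-17 (WBGene00001460, IV:17190204-17191891, minus strand) is a BAG peptide gene whose peptides act on the receptor EGL-6. Its optimal region at IV:17191886-17192269 had signal 100 and rank 1180, with the summit between genes, 187 bp upstream of the 5′ end and with the nearest other protein-coding 5′ end on that side, that of cnnm-1, 14753 bp away. The signal value was 56.4 (rank 1482) in replicate 3 and 43.7 (rank 993) in replicate 4. Replicate 3 placed the summit 3 bp away. Replicate 4 placed it 108 bp further upstream, and its region still covered 67.4% of the optimal one. With summits required to lie within 100 bp, as used here, the flp-17 region thus counts as without support in replicate 4, although that replicate ranked it higher than replicate 3 did.

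The pooled list also split the flp-17 promoter: a region 388 bp upstream, at IV:17192087-17192470, overlapped the optimal one and had signal 53.9 and rank 3063. The same replicate 4 summit lay 93 bp from it, between the pooled summits, whereas replicate 3 had a separate summit 30 bp from it (rank 3422). The other 4 pooled regions of flp-17 lay 1404 bp upstream (rank 3726; 3458 and 4802 in replicates 3 and 4), and 616, 1321 and 1582 bp inside the gene (ranks 6085, 10151 and 4364). That is 6 pooled regions in a window of 3688 bp.

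flp-19 (WBGene00001462, X:10604686-10605831, plus strand), a peptide gene of BAG and URX, had its optimal region at X:10603710-10604093, with the summit 784 bp upstream, signal 77.5 and rank 1771. Replicate 3 ranked it 1717, with a summit 2 bp away. Replicate 4 had a summit on each side of it: 91 bp toward the gene at rank 9169, and 116 bp away from the gene at rank 2281, just inside the 2294 strongest of that replicate. The other pooled regions lay 1618 bp upstream (rank 4073; 4767 in replicate 3 and 3217 in replicate 4) and 65 bp inside the gene, in the 5′ UTR (rank 4996; 4958 in replicate 3 at the same base, and a replicate 4 summit 111 bp away at rank 8927). The nearest other protein-coding 5′ end upstream was that of sdn-1, 10568 bp from the optimal summit.

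The sequences of the flp-17 and flp-19 regions are shown because the replicates put the summit in different places within them, and that of flp-8 because there they put it in the same place without the region reaching the optimal list. They are from the same RefSeq genome of ce11, read in the direction of the gene, from 50 bp before the first to 50 bp after the last of the pooled summit and the strongest replicate summits within 200 bp. Capitals mark GCGTG (base 17) and CCGGAA (base 168) in flp-17, IV:17192028-17192236, minus strand, where the summits of replicate 4, replicate 3 and the pooled list are at bases 51, 156 and 159. In flp-19, X:10603736-10603952, plus strand, the summits of replicate 4, replicate 3 and the pooled list are at bases 51, 165 and 167. In flp-8, X:14880428-14880530, plus strand, they are at bases 51, 52 and 53. No motif searched was found in these stretches of flp-19 and flp-8, which therefore have no capitals.
flp-17: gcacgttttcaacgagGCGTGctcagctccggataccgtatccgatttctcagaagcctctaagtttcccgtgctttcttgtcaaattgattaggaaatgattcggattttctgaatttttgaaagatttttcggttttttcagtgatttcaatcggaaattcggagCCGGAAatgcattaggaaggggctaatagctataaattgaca
flp-19: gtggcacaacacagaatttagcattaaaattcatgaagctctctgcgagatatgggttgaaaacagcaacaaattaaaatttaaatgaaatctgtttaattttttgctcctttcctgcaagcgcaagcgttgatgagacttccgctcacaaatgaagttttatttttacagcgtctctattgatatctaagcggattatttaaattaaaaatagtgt
flp-8: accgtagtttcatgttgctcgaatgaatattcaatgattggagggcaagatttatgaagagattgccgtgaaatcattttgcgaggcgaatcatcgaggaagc

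**Figure D2:**
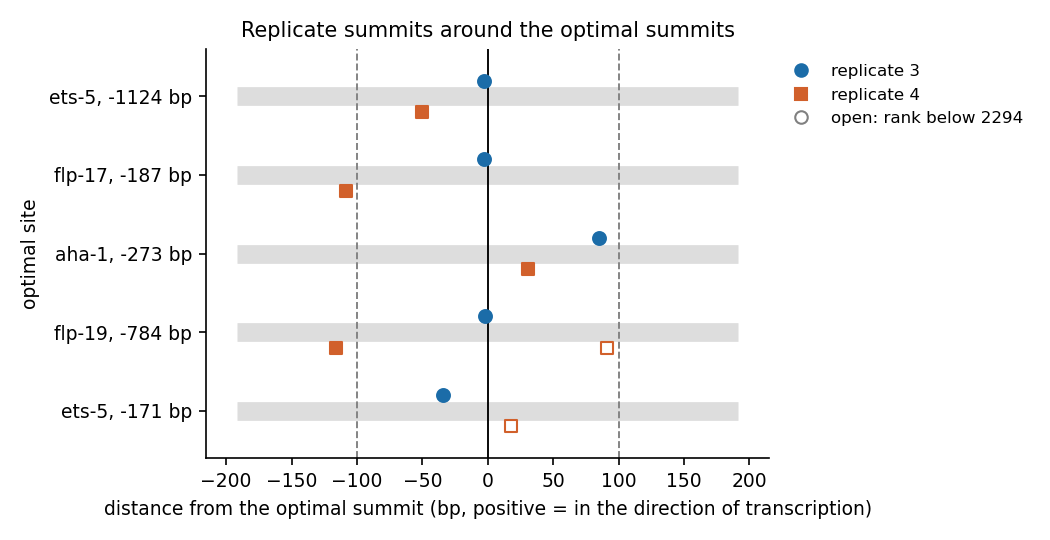
Replicate summits around each optimal summit, as distance in bp in the direction of transcription of the gene. Grey bars are the optimal regions, dashed lines mark 100 bp on each side, and open symbols are replicate regions outside the 2294 strongest of their replicate. The replicate 4 summits of flp-17 and flp-19 at 108 and 116 bp fall just past the left dashed line.

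flp-8 (WBGene00001451, X:14881419-14882267, plus strand), a URX peptide gene, had 3 pooled regions. The strongest lay 939 bp upstream at X:14880288-14880671, with signal 45.2 and rank 4100. It ranked 6866 in replicate 3 and 3676 in replicate 4, with summits 1 and 2 bp from the pooled one. The others lay 1821 bp upstream (rank 13557) and in an intron 303 bp from the 5′ end (rank 6952). The strongest replicate 3 region of the window was a different one, 38 bp inside the gene, at rank 4257 and 265 bp from any pooled summit. The nearest optimal summit was 27422 bp away, 89 bp upstream of C27C12.4.

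flp-10 (WBGene00001453, IV:7868907-7870081, plus strand), whose peptide acts on EGL-6 as those of flp-17 do, had the weakest best region of the 10 genes in the pooled list, though not in replicate 4. Its pooled regions lay 1456 bp upstream (signal 24.7, rank 16513) and in an intron 549 bp from the 5′ end (rank 24879). Replicate 3 had no region in the window, and replicate 4 had 4, the strongest 1674 bp upstream at rank 6488. Outside the window, an optimal region at IV:7862726-7863109 had its summit 5989 bp upstream, and flp-10 was the nearest protein-coding 5′ end to it. It had signal 66.9 and rank 2220, close to the end of the optimal list, and ranked 2295 in replicate 3 and 2253 in replicate 4.

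npr-5 (WBGene00021983, V:276985-281716, minus strand), a neuropeptide receptor gene, had 2 pooled regions, both upstream. The stronger, 1318 bp upstream at V:282842-283225, had signal 46.7 and rank 3883. It ranked 11011 in replicate 3 and 9927 in replicate 4, with summits 3 and 81 bp away, so its pooled rank was far above either replicate's. The weaker lay 631 bp upstream at rank 24623 (12966 and 25718 in replicates 3 and 4). The nearest optimal summit was 99913 bp from the gene, 345 bp upstream of cul-3.

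The replicates were compared to ask how firmly each optimal region stood. Of the 5 optimal regions, 2 had a summit within 100 bp among the 2294 strongest of each replicate, where 64.8% of all 2294 optimal regions did. Counted by gene under the same rule, 2 of the 10 genes (ets-5, through its distal region, and aha-1) kept an optimal region, against 8.50% of all protein-coding genes. With 200 bp the number was 4, against 8.76% of all genes, as flp-17 and flp-19 were added. Counting summits at any rank, 95.3% of the 2294 optimal regions had a replicate 4 summit within 100 bp and 99.1% within 200 bp. The median distance was 16 bp. For replicate 3 these values were 98.2%, 99.9% and 7 bp. These shares do not show how many regions depended on the distance under the rule, which also needs a summit among the 2294 strongest. Taken alone, the 2294 strongest regions of replicate 3 touched the windows of the same 4 genes, against 11.7% of all genes. Those of replicate 4 touched these 4 and ahr-1, against 11.6% of all genes.

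**Figure D3:**
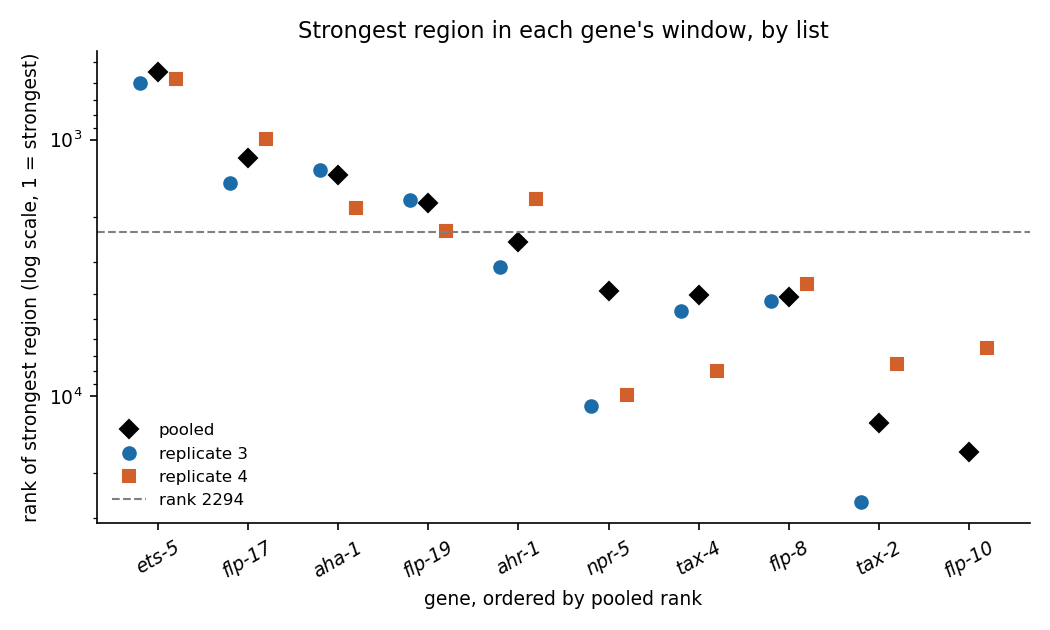
Rank of the strongest region in the window of each gene, on an inverted log axis, for the pooled list (diamonds), replicate 3 (circles) and replicate 4 (squares). The dashed line is rank 2294. The regions compared in a gene need not be the same one, and flp-10 has no replicate 3 region. In ets-5, flp-17, aha-1 and flp-19 all 3 symbols lie above the line (replicate 4 of flp-19, at rank 2281, by very little), and ahr-1 has replicate 4 alone above it.

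Of the 39 pooled regions at these genes, 16 (41.0%) had a summit within 100 bp in both replicate lists at any rank, against 26.4% of all 30000 pooled regions. Among the strongest 2294 of both replicates, the number was 2 (5.13%), against 4.98% of all pooled regions. At any rank, a further 9 had one in replicate 3 alone, 12 in replicate 4 alone and 2 in neither. Replicate 3 held 34 regions in the windows and replicate 4 held 40, of which 9 and 13 had no pooled summit within 100 bp. The strongest of these were the replicate 3 summit of ahr-1 at rank 3149 and the replicate 4 summit of flp-19 at rank 2281, both described above. For 30 of the 39 the nearest protein-coding 5′ end was one of the gene itself, and 31 lay in no other gene's window. By feature, 18 lay between genes, 12 in introns, 4 in coding exons, 2 in 5′ UTRs and 3 in 3′ UTRs. All 5 optimal summits lay upstream; over all genes 74.6% of the 2786 pairs of an optimal summit and a window did.

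The order of the 10 genes by their strongest pooled region was ets-5, flp-17, aha-1, flp-19, ahr-1, npr-5, tax-4, flp-8, tax-2 and flp-10. A region as strong as that of ets-5 or stronger was found in the windows of 3.57% of protein-coding genes. This share was 7.19% for flp-17, 8.19% for aha-1, 9.86% for flp-19 and 12.8% for ahr-1. It lay close together for npr-5, tax-4 and flp-8 (17.4%, 17.9% and 18.0%) and was 40.2% for tax-2 and 48.0% for flp-10. The order differed between replicates. In replicate 3 aha-1 (rank 1309) stood above flp-17 (1482), and in replicate 4 flp-17 (993) stood above aha-1 (1844). Below ets-5 and flp-17, replicate 4 placed ahr-1 (1710) above aha-1 and flp-19 (2281), then flp-8 (3676). Last in the pooled order, flp-10 (6488) stood above tax-2 (7488), tax-4 (7985) and npr-5 (9927) in replicate 4, where npr-5 was the weakest of the 10. In replicate 3 npr-5 (11011) also stood below tax-4 (4672) and flp-8 (4257), and tax-2 (25927) was the weakest of the 9 genes with a region. The median rank of the strongest pooled region was 3198 over the 10 genes, against 10261 over the 13711 protein-coding genes with any pooled region.

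**Figure D4:**
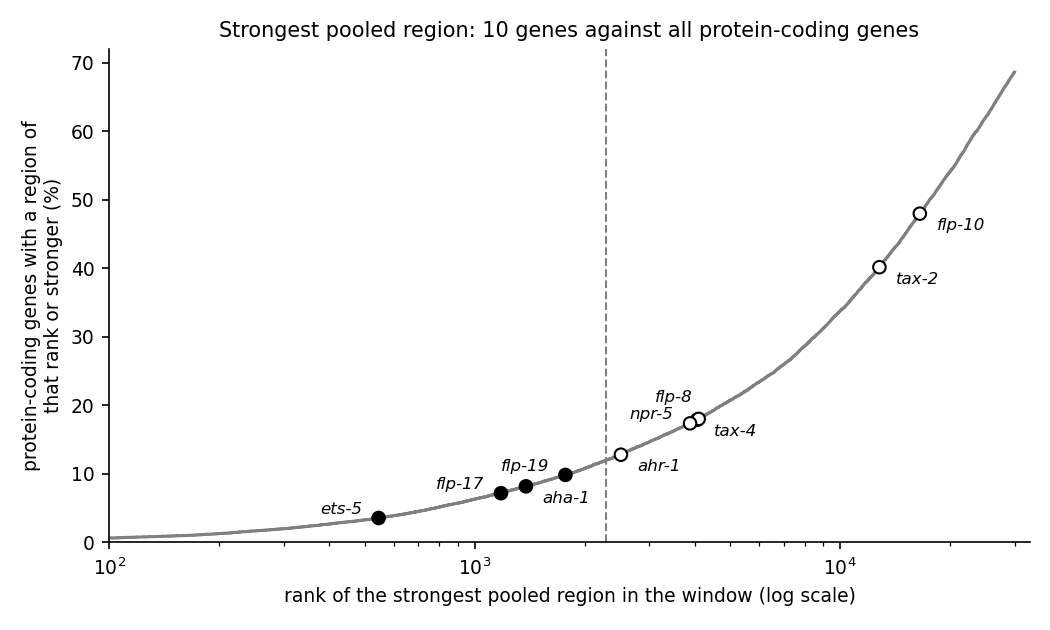
Cumulative share of all 19973 protein-coding genes (grey line) against the rank of the strongest pooled region in the window, on a log axis, with the 10 genes on it (filled where the gene has an optimal region). The dashed line is rank 2294. ets-5 lies farthest left of the 10 at 3.57%, and tax-2 and flp-10 stand far to the right at 40.2% and 48.0%.

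Short sequences were looked for on both strands within 50 bp of each pooled summit. CCGGAA was found at 2 of the 5 optimal summits (ets-5 proximal and flp-17) and at none of the 34 other pooled summits of these genes, where 4.75% of all optimal summits and 4.01% of weaker pooled regions hold it. GCGTG was found at 2 of the 5 (ets-5 distal, in the tRNA gene, and aha-1) and 3 of the 34, against 21.7% and 6.74%. AACAAT was found at 1 of the 5 (ets-5 distal) and 4 of the 34 (at ahr-1, tax-2 and ets-5), against 6.15% and 12.1%. GAGAGA was at 0 of the 5 and 4 of the 34 (ets-5, npr-5 and both stronger tax-4 regions), against 25.4% and 6.87%. GACGCA was at 0 of the 5 and at 1 of the 34 (tax-2), against 15.3% and 2.85%, and CACGTG at neither, against 4.27% and 1.96%. GAGAGA and GACGCA were included because earlier results of these data had shown them to be frequent at summits. The median GC content of the 5 optimal summits was 38.6%, the same as that of the 34 others, against 46.5% over all optimal and 33.7% over weaker regions; within the 5 it ran from 34.7% (flp-17 and flp-19) to 50.5% (ets-5 distal).

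Other genes of the same pathways and families were counted with the same window and optimal list, where 12.0% of all genes have a region. The first list held 13 cyclases and associated genes of BAG and URX. These were gcy-9, gcy-31, gcy-33, gcy-32, gcy-34, gcy-35, gcy-36, gcy-37, glb-5, pde-1, pde-2, npr-1 and egl-13, the gene of the tagged factor itself. Of these 13, 7 had an optimal region, glb-5 and pde-1 among them. The strongest were at gcy-33 (rank 290, 301 bp upstream), gcy-36 (rank 1553, 3 bp inside the gene), glb-5 (rank 1631, 1910 bp upstream but 333 bp from C18C4.7) and gcy-31 (rank 1732, 60 bp upstream). These encode guanylate cyclases, except glb-5, which encodes a globin. Of the 7 regions, 2 lay within 200 bp of a tRNA gene, as the ets-5 distal one did, against 3.84% of all optimal regions. They were the regions of gcy-33 and gcy-35. The gcy-35 summit (rank 2032) lay 5801 bp downstream of the gcy-35 5′ end but 84 bp from that of T04D3.5. gcy-35 was named after its values were seen. None of 8 other ETS-domain genes had a region (ets-1, ets-2 and ets-3 matched no protein-coding name). Of 3 other bHLH-PAS genes 1 had one, hif-1, the hypoxia-inducible factor gene, at rank 49 and 1980 bp upstream. Of 4 other channel subunit genes 1 had one, cng-3, at rank 1899 and 358 bp from the 5′ end of wrt-3. Of 27 other flp genes 1 had one, flp-18 (rank 1726, 1019 bp inside the gene). Of 42 other npr genes 9 had one, the strongest at npr-23 (rank 366), npr-2 (743), npr-4 (1076) and npr-37 (1125). No list was tested against another.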

How the data were processed

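Chromatin immunoprecipitation was followed by sequencing in 2 replicates of 1 group. Per the deposited file descriptions, the authors made narrowPeak lists on ce11 per replicate and on both replicates together, with a control alignment, for IDR. IDR compares the ranks of regions between replicates. The lists were thresholded into 1 optimal list, which held exactly the 2294 strongest pooled regions, so a region in it need not rank alike in both replicates. Which peak caller, aligner and cutoff were used is not given in the sources used here. As for units, the deposited signal value per region has no stated scale and was used to rank regions within a list and to describe them; the deposited −log10 q values played no part in the ranking. Depth per sample is unknown.

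The 10 genes and the other gene lists were chosen with earlier results of these data known. Genes and 5′ ends came from Ensembl release 115 on WBcel235, which is ce11, and sequences from the RefSeq genome of that assembly; 0 regions extended past a chromosome end. Positions are 1-based, and a summit is the region start plus the deposited offset. Windows ran from 2000 bp upstream to the end of the gene, and counts are given beside those over 19973 protein-coding genes on the nuclear chromosomes. Support was a replicate summit within 100 bp among the 2294 strongest regions of that replicate. Weaker regions are 27332 pooled regions that no optimal region overlaps. No test was run, since there is 1 group and genes are not replicates. Genes named are the 10, those beside their regions, and in each other list the 4 with the strongest optimal region. The 13 cyclases and associated genes are also listed by name, and pde-1 was singled out after its values were seen. Genes beside the nearest optimal region of the 6 genes without one were named after their values were seen. Window counting was tested on simulated data. Alternatives covered the window, the summit distance, the overlap rule, the list threshold and each replicate alone; assignment to the nearest 5′ end was added after seeing the data. The ce10 lists were not used here. Python 3.11.15, NumPy 2.4.6, pandas 2.3.3 and matplotlib 3.10.9 were used.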

Additional observations from a re-analysis of the deposited data

How the results depend on the processing

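The counts of genes with an optimal region (4), of optimal regions (5), of genes with support in both replicates (2) and of genes with a pooled region (10) stayed within 1.5 times their value in 23 of 31 recomputations. The last of these counts held all 10 genes at the start, in a list that includes background. It was 9 or 10 throughout and says little about stability. In the stronger 50% of the optimal list, 1 gene and 1 region (at ets-5) were left, and 1 gene with support in both replicates. A window from 500 bp upstream left 3 optimal regions, and windows from 1000 and 500 bp each left 1 gene with support in both replicates, since the distal ets-5 region lies beyond them. That number was 1 with replicate summits within 50 bp and 4 within 200 bp. Without replicate 3 or without replicate 4 the number of genes was 5 and 4, and that of regions 6 and 5. With the nearest 5′ end required to be one of the gene itself, 3 genes and 4 optimal regions were left. The aha-1 region dropped out, since its summit lay closer to C25A1.15. Of the percent ranks of each gene's strongest region in 1 replicate alone, 9 of 19 were close to the pooled value. Close means that they differed from it by less than the standard deviation of the 2 replicate values. flp-10 has no region in replicate 3 and so no such spread, and its 1 value was counted as not close. No paired analysis was possible because there is 1 group. Depth is unknown, so a region missing from 1 replicate may lie below its list's end.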
